A study of Arabidopsis thaliana with 24 samples.

Results

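Roots and shoots of unstressed Arabidopsis plants were compared for the reactivity of their RNAs with dimethyl sulfate (DMS) in the living tissue. The members are 8954 nuclear and organellar loci out of 8956 in the table, each represented by the lowest-numbered of its measured transcripts. A locus entered when its mean reactivity, averaged over control root and control shoot, reached 0.1. Of the 24 libraries of the series, the 12 without salt are the base of these values: 6 from shoots and 6 from roots, of which 3 in each tissue received DMS and 3 did not. All plants were Arabidopsis thaliana accession Col-0 grown without a transgene or mutation named in the labels, first on agar plates and then in dilute Hoagland's solution. They were treated after 24 days of growth, per the labels. Control plants stayed in the same solution for the 48 h during which the other plants received 100 mM NaCl. Each library was made from about 40 pooled plants. Excised shoots or roots were placed in buffer with 0.75% (about 75 mM) DMS for 5 min, or in buffer alone.

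DMS passes into living cells and methylates adenines and cytosines whose pairing face is free, so a reactive base is one that is not paired or otherwise shielded. Reverse transcriptase stops at the methylated bases, and Structure-seq2 counts these stops along each transcript against a control without DMS. A high mean reactivity of a transcript means that many of its bases, or a few of them strongly, were accessible. The Gini index describes how evenly the reactivity is spread along the transcript: it is 0 when every base is equally reactive and approaches 1 when few bases hold all of it. Shoots are mostly green leaf tissue with chloroplasts, whereas roots hold non-green plastids, take up water and nutrients and build lignified vessels, and the gene groups below follow that division.

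The authors combined the replicates, so each tissue has 1 value per transcript and measure. No spread between replicates, error or test could be computed, and every difference below is described by its size and by how many loci lie beyond it. How deeply each library or transcript was read is unknown. In bulk tissue, fewer cells of a type and less RNA per cell cannot be told apart. Reactivity does not measure abundance, so the tissue labels could not be checked by the level of marker genes. Only 6 of 20 root marker genes and 27 of 59 nuclear genes for light harvesting and photosystems were among the loci compared.

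The scales of the 2 tissues differed in a way that touches every ratio. In control shoots the standard deviation of reactivity along a transcript was almost the same for all loci, with a median of 0.369, a percentile 5 of 0.354 and a percentile 95 of 0.386. In control roots the median was 0.264 and the same percentiles were 0.182 and 0.520. Mean reactivity and Gini index were almost mirror images in control shoots (Spearman's rho -0.993 across 8954 loci), but not in control roots (-0.223). With salt the corresponding values were -0.785 in shoots and -0.279 in roots. All points of such a correlation share the libraries of 1 tissue and treatment, and the loci are not replicates. The authors' scaling of reactivity, not given in the sources used here, was not tested for its part in the differences between tissues.

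**Figure D1:**
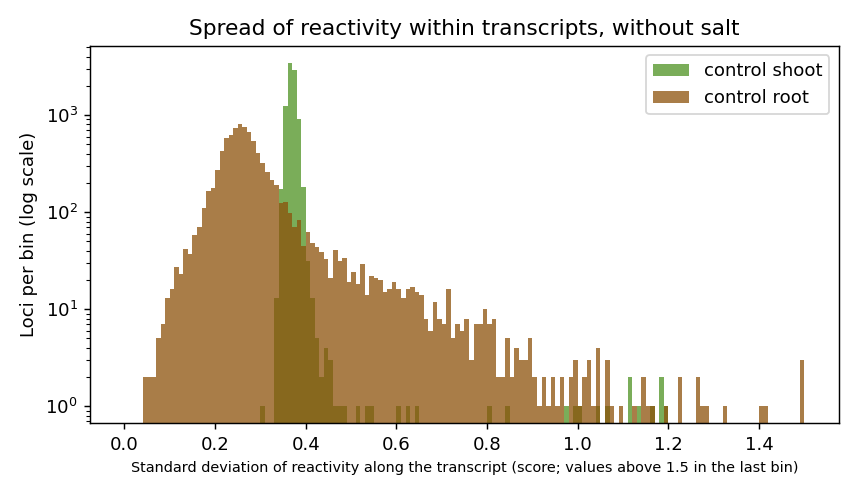
Number of loci (log scale) by the standard deviation of reactivity along the transcript (score) in control shoot (green) and control root (brown). Shoot values crowd around 0.369, whereas root values spread from below 0.182 to above 0.520.

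Most RNAs were less reactive in root than in shoot. The median of mean reactivity over loci was 0.198 in root, with an interquartile range of 0.173 to 0.233. It was 0.273 in shoot, with a range of 0.247 to 0.306. The root values thus lay mostly below the shoot values, and the median log2 ratio of root over shoot was -0.45, or 0.730-fold. Only 666 of the 8954 loci (7.44%) had a ratio above 0. The log2 ratio had a percentile 25 of -0.59 and a percentile 75 of -0.31, and percentiles 5 and 95 were -0.85 and 0.12.

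The highest single-base reactivity and the standard deviation were lower in root by a similar factor. The median over loci of the highest reactivity was 1.28 in root and 1.75 in shoot, a median ratio of 0.724-fold. For the standard deviation the median ratio was 0.712-fold. Relative to their mean, then, the profiles of a typical RNA were as uneven in one tissue as in the other. The median Gini index was 0.678 in root and 0.679 in shoot, with a median difference of -0.0068, and 42.0% of loci were more uneven in root. The order of loci was partly kept between tissues, with a Spearman's rho of 0.744 for mean reactivity and 0.661 for the Gini index across 8954 loci.

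By a limit of 1.5-fold, 42 loci (0.469% of all compared) were higher in root and 2263 (25.3%) were lower. Because the whole distribution was shifted, the ratio was also centred, by subtracting its median over all loci. On this centred log2 scale 0 is the typical locus, and 433 loci (4.84%) then lay at least 1.5-fold above it and 180 (2.01%) at least 1.5-fold below. These counts depend on mean reactivity. Loci were divided into 10 classes of about equal size by their mean reactivity over both tissues. The median log2 ratio was 0.09 in the highest class and -0.64 in the lowest. The highest class, 896 loci, held 520 of the 666 loci above 0. The class is set partly by the root value, which is also the numerator of the ratio. Part of this dependence is therefore built in, and centring within classes also removes part of any real root difference. When each ratio was centred within its class of mean reactivity instead, 46 loci lay above the limit and 174 below it.

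Ratio and unevenness moved together at both ends of the distribution. The 433 loci above the limit had a median Gini index of 0.728 in root and 0.571 in shoot, and 418 of them were more uneven in root. In 347 the Gini index was higher in root by at least 0.1, a step passed by 500 of all loci (5.58%). The 180 loci below the limit showed the opposite, with medians of 0.601 in root and 0.707 in shoot. In 80 of these the Gini index was lower in root by at least 0.1, a step that 159 loci passed in all (1.78%). Across all loci the log2 ratio and the Gini difference had a Spearman's rho of 0.551, and both are computed from the same reactivities. In control shoots the Gini index nearly mirrored mean reactivity (Spearman's rho -0.993). The shoot Gini indices of both groups thus largely restate their median shoot reactivities, 0.341 above the limit and 0.258 below. The Gini difference is therefore not independent of a choice made by the ratio. The Gini difference also depended on mean reactivity, with a median of 0.099 in the highest class and -0.039 in the lowest.

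**Figure D2:**
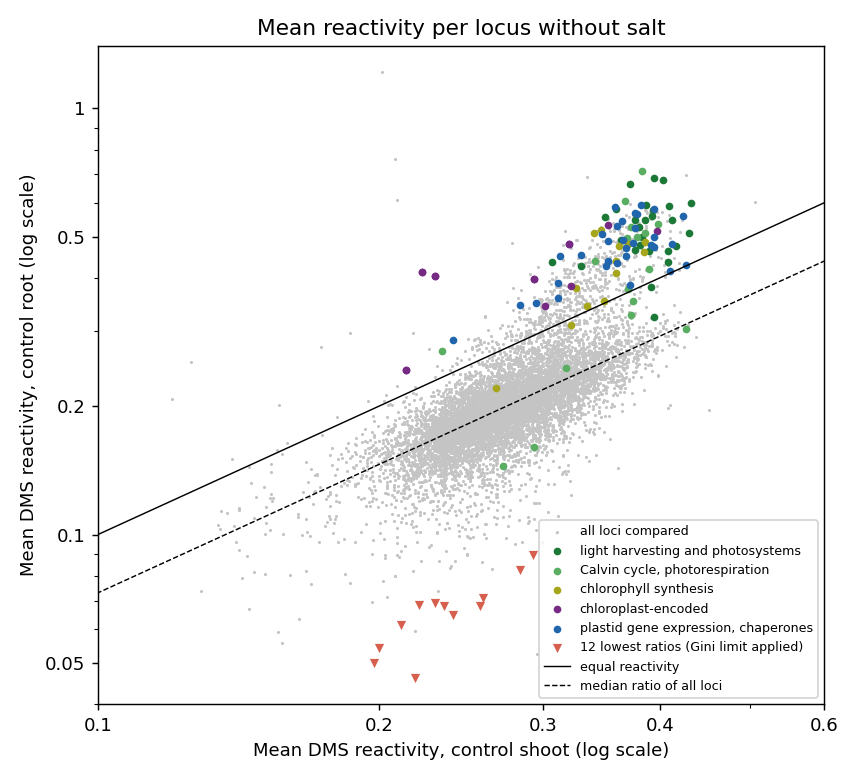
Mean reactivity per locus in control root against control shoot (both log scales). The solid line marks equal reactivity and the dashed line the median ratio of 0.730-fold. Most of the 103 loci of the chloroplast-related gene lists (coloured circles) lie above the solid line, and the 12 named loci with the lowest ratios (triangles) lie at root values of 0.0462 to 0.0898.

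Genes for photosynthesis lay on the upper side. The nuclear genes for light-harvesting proteins and photosystem subunits had a median of mean reactivity of 0.525 in root and 0.389 in shoot over the 27 members measured. The raw median log2 ratio was 0.47 and the centred one 0.92. In 25 of the 27 the root value was the higher one, against 7.44% of all loci, and in 6 by at least 1.5-fold, against 0.469%. All 27 lay above the median ratio of all loci. On the centred scale 24 passed the limit upward and 0 downward, against 4.84% and 2.01% of all loci. All 27 also had a Gini index higher in root by at least 0.1, against 5.58% of all loci. The list median of the index was 0.800 in root and 0.518 in shoot, and its ranges, 0.700 to 0.857 and 0.452 to 0.623, did not overlap.

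The antenna proteins, which bind chlorophyll and pass light energy to the photosystems, had 9 members, all higher in root, against 7.44% of all loci. LHB1B2, an antenna protein of photosystem II, had a mean reactivity of 0.686 in root and 0.395 in shoot, or 1.74-fold. LHCB6, a minor antenna protein of the same photosystem, stood at 0.680 and 0.403, or 1.69-fold. LHCB6 reached the highest reactivity in the table, 7, at its most reactive base in root, against 1.66 in shoot. CAB3, CAB2 and CAB1, near-identical antenna genes that can share reads, had log2 ratios of 0.47, 0.50 and 0.18. LHCA1 and LHCA2, antenna proteins of photosystem I, had ratios near equality (0.24 and 0.19). Their Gini indices had 2 of the 5 largest differences within the Gini limit of 0.9: 0.814 in root and 0.475 in shoot for LHCA1, and 0.800 and 0.464 for LHCA2.

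Photosystem II subunits, the proteins of the water-splitting complex, gave 5 of 6 members above 0, against 7.44% of all loci. PSBX stood at 0.592 in root and 0.386 in shoot, a log2 ratio of 0.61. PSBP-1 and PSBO1, extrinsic proteins of the oxygen-evolving complex, had log2 ratios of 0.55 and 0.51. PSBR, another subunit of photosystem II, was the exception, at 0.323 in root and 0.394 in shoot (-0.29). Its Gini index was still the higher one in root, 0.808 against 0.522.

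Among photosystem I subunits 6 of 7 lay above 0, against 7.44% of all loci. PSAD-2 had 0.554 in root and 0.349 in shoot (log2 ratio 0.67), and its paralogue PSAD-1 had 0.437 and 0.408 (0.10). PSAG was the lowest, at 0.381 and 0.391. PSAO had one of the largest differences in highest reactivity, 7 in root against 1.48 in shoot. The carriers and the ATP synthase were all higher in root. ATPD, the delta subunit of the chloroplast ATP synthase, led the list at 0.663 in root and 0.371 in shoot (1.79-fold). DRT112, a plastocyanin that carries electrons between the photosystems, had a log2 ratio of 0.69. FED A, a leaf ferredoxin, stood at 0.54, and FNR1, which passes electrons from ferredoxin to NADP, at 0.47.

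In root the reactivity of these genes was held by fewer, strongly reactive bases. The median of the highest reactivity in the list was 5.58 in root and 1.64 in shoot, and the median standard deviation was 0.996 and 0.356. Of the 27 members 7 reached 7 in root and 0 did in shoot, whereas over all loci 24 reached 7 in root and 12 in shoot. No locus exceeded 7, so whether larger values were cut off there cannot be told. The coverage behind these root values is unknown, and its part in these values was not tested.

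**Figure D3:**
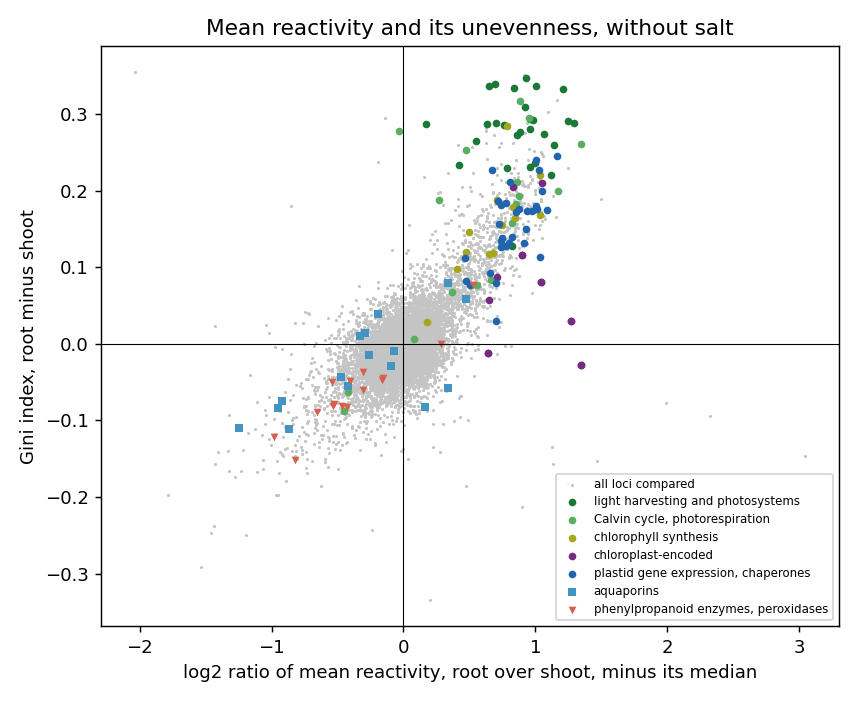
Difference of the Gini index (root minus shoot) against the centred log2 ratio of mean reactivity for all loci (grey) and 7 gene lists. Light-harvesting and photosystem genes lie at the upper right with a median Gini difference of 0.286, and most aquaporin and phenylpropanoid genes lie at the lower left.

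Enzymes of the Calvin cycle, which fixes carbon dioxide, and of photorespiration, which salvages the by-product of Rubisco's oxygenase reaction, lay on the same side with more exceptions. Of the 17 members measured, of 33 named, 11 had a raw ratio above 0, against 7.44% of all loci. On the centred scale 9 passed the limit upward and 0 downward, against 4.84% and 2.01%. The median centred log2 ratio was 0.66. SHM1, the mitochondrial serine hydroxymethyltransferase of photorespiration, was highest at 0.711 in root and 0.383 in shoot (1.86-fold). RPE, a ribulose-phosphate epimerase, followed at 0.604 and 0.367 (1.65-fold). The Rubisco small subunit genes differed from each other, with 0.526 and 0.372 for RBCS3B and 0.376 and 0.370 for RBCS1A. The exceptions were PDE345, a plastid aldolase, at 0.145 in root and 0.272 in shoot, and CP12-3, a small regulator of the cycle, at 0.160 and 0.294. Their centred log2 ratios were -0.45 and -0.42, and both were more even in root, unlike the other 15 members. CP12-1, a paralogue of CP12-3, had a centred log2 ratio of -0.04 but a Gini index of 0.751 in root and 0.473 in shoot.

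Chlorophyll synthesis enzymes gave a median centred log2 ratio of 0.71 over 13 of 24 members, with 9 past the limit upward and 0 downward, against 4.84% and 2.01% of all loci. GSA2 and HEMC, which act in the early steps shared with haem, were highest, at 0.519 in root and 0.346 in shoot and at 0.509 and 0.340. HEMG2, a protoporphyrinogen oxidase, was lowest, at 0.220 and 0.267. All 13 were more uneven in root, against 42.0% of all loci.

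The machinery that expresses the chloroplast genome lay on the same side without exception on the raw scale. Plastid ribosomal proteins, plastid RNA-binding proteins and plastid chaperones, 32 of 38 members, all had raw log2 ratios above 0, against 7.44% of all loci. The ratios ran from 0.01 for CLPC1, a chaperone of protein import and degradation, to 0.71. PSRP2, a plastid-specific ribosomal protein, was the highest, at 0.586 in root and 0.358 in shoot (1.64-fold). EMB3126, a plastid ribosomal protein, followed with a log2 ratio of 0.64. On the centred scale 29 of the 32 passed the limit upward and 0 downward, against 4.84% and 2.01% of all loci, with a median of 0.80. All 32 were more uneven in root, against 42.0% of all loci. The RNA-binding proteins RBP31, CP33, CP31B and CP29, which act on chloroplast transcripts, had log2 ratios of 0.58, 0.52, 0.46 and 0.34.

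Transcripts of the chloroplast genome itself also lay above 0 in all 14 cases, against 7.44% of all loci. The 14 held 9 distinct values, because duplicated loci carry the same ones. The median centred log2 ratio was 0.97, and all 14 passed the limit upward, against 4.84% of all loci. ATCG00950 and its duplicate ATCG01180 stood at 0.413 in root and 0.223 in shoot (1.86-fold), and ATCG00920 and ATCG01210 at 0.404 and 0.230 (1.76-fold). Unlike most nuclear genes of the chloroplast-related lists, these 4 loci had similar Gini indices in both tissues. The values were 0.710 in root and 0.737 in shoot for the first pair and 0.749 and 0.720 for the second. Of the 14, 4 were more uneven in root by at least 0.1, against 5.58% of all loci, among them ATCG00470 with 0.695 against 0.490. The reference table gives these chloroplast loci no gene symbol and no class of RNA, so messenger and ribosomal RNAs of the chloroplast were not separated. The 6 measured transcripts of the mitochondrial genome had a median centred log2 ratio of -0.17. Of these 0 passed the limit in either direction, against 4.84% upward and 2.01% downward of all loci.

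Together the 5 chloroplast-related lists held 103 loci with a median centred log2 ratio of 0.83, and 85 of them (82.5%) passed the limit upward against 4.84% of all loci. Those 85 made up 19.6% of the 433 loci above the limit, although the lists held 1.15% of the loci compared. The lists were chosen with earlier results of these data known, so these shares only describe them. Duplicated loci leave 98 distinct values among the 103. When centred within classes of mean reactivity, which share the root value with the ratio, the median of the 103 was 0.31. It was 0.38 for the light-harvesting and photosystem genes, 0.51 for the chloroplast-encoded transcripts and 0.17 for chlorophyll synthesis. Without these lists 348 loci lay above the limit. Of the 103 loci, 95 were in the highest class of mean reactivity, where the median Gini difference of all loci was 0.099. The median Gini difference of the 103 was 0.178.

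**Figure D4:**
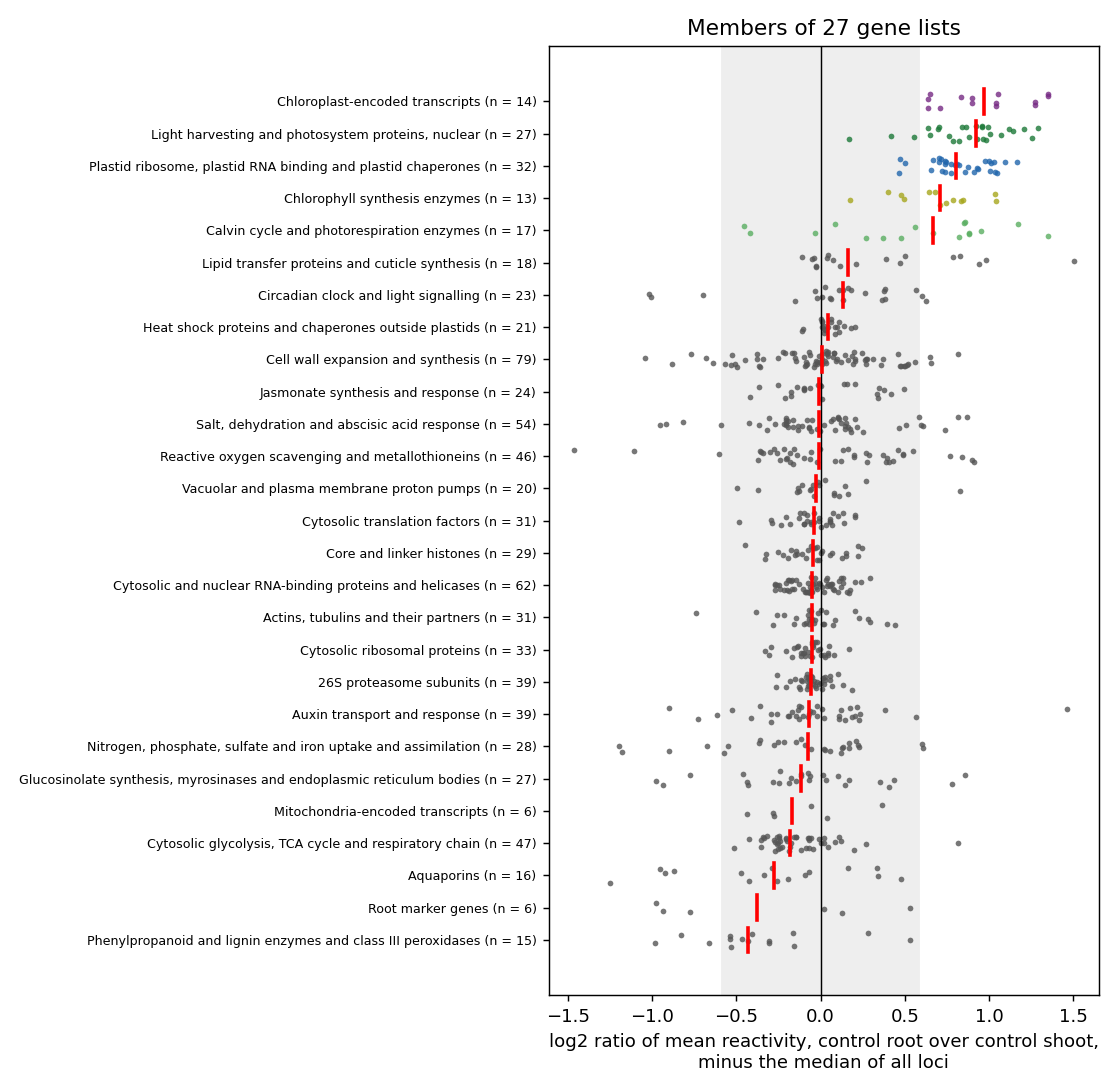
Centred log2 ratio of mean reactivity, control root over control shoot, for each member (points) of 27 gene lists, with the list median as a red bar. The grey band spans the 1.5-fold limit in both directions. The 5 chloroplast-related lists have medians of 0.66 to 0.97, and the phenylpropanoid list has the lowest median, -0.43.

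Lists of related cytosolic and mitochondrial functions had medians near or below the typical ratio. The division was by list and not strictly by compartment. SHM1, a mitochondrial enzyme counted above with photorespiration, stood at 1.35 centred. Heat shock proteins and chaperones outside plastids had a median centred log2 ratio of 0.04 over 21 members, with 0 past the limit either way. Over all loci 4.84% lay past it upward and 2.01% downward. HSC70-1, a cytosolic chaperone, had 0.229 in root and 0.339 in shoot, whereas cpHsc70-2 of the plastid had 0.451 and 0.368. Cytosolic ribosomal proteins had a median of -0.05 over 33 members, unlike the plastid ribosomal proteins above. Of the 33, 0 passed the limit, against the same shares of all loci. Cytosolic glycolysis, the tricarboxylic acid cycle and respiration had a median of -0.18 over 47 members. Of these 28 were lower in root by at least 1.5-fold on the raw scale, against 25.3% of all loci. Their exception was PPC2, a phosphoenolpyruvate carboxylase, with 0.426 in root and 0.331 in shoot (centred 0.82), while its paralogue PPC1 had 0.180 and 0.273 (-0.14).

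On the lower side, the 12 named loci with the lowest ratios had weak and rather even profiles in root. Low root values were partly built into this choice, which was made by the ratio. Loci with a Gini index above 0.9 in either tissue had been left out, so the evenness also depends on the choice. Among those left out was AT1G22690, with the lowest ratio of all, which was more uneven in root than in shoot. The mean reactivity of the 12 was 0.0462 to 0.0898 in root and 0.198 to 0.292 in shoot. The highest reactivity of any base was 0.192 to 0.487 in root, below the median of 1.28 for all loci. All 12 had a lower Gini index in root, and none was in a chloroplast-related list. AT4G38080 was the lowest of the 12, at 0.0462 in root and 0.219 in shoot (0.211-fold). MLP34, a major latex protein-like protein, had 0.0499 and 0.198 (0.252-fold), and its Gini index was 0.504 in root and 0.795 in shoot. MT1C, a metallothionein that binds metal ions, had 0.0680 and 0.256. PMEPCRA, a pectin methylesterase of the cell wall, had 0.0649 and 0.240. JAL34, a jacalin-related lectin, had 0.0828 and 0.283, and NUDX25, a Nudix hydrolase, had 0.0685 and 0.221. The remaining loci without a symbol were AT2G22510, AT1G09740, AT3G48180, AT5G40690 and AT1G49310, at 0.270-fold to 0.301-fold.

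Aquaporins, which carry water across the plasma membrane and the tonoplast, included the other named locus, PIP2B. It stood at 0.0898 in root and 0.292 in shoot (0.307-fold). RD28, its near-identical neighbour that can share reads with it, stood at 0.0982 and 0.260. PIP1A had 0.124 and 0.321, and TIP2;2, a tonoplast channel, had 0.119 and 0.297. These 4 of the 16 members measured passed the limit downward on the centred scale and 0 passed it upward, against 2.01% and 4.84% of all loci, with a list median of -0.28. DELTA-TIP, PIP2;8, SIP1;2 and PIP1;4 lay above the typical locus instead, and PIP1;4 had 0.291 in root and 0.287 in shoot.

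Phenylpropanoid and lignin enzymes, which make the phenolic polymer of vessel walls, had the lowest median of all 27 lists, -0.43 centred over 15 of 72 members. By the raw ratio 13 of the 15 were lower in root by at least 1.5-fold, against 25.3% of all loci. On the centred scale 3 passed the limit downward and 0 upward, against 4.84% upward and 2.01% downward of all loci. C4H, cinnamate hydroxylase, had 0.107 in root and 0.289 in shoot. PAL1, phenylalanine ammonia-lyase at the entry of the pathway, had 0.103 and 0.251, and CCoAOMT1, a methyltransferase of lignin precursors, had 0.144 and 0.312. HCT, CYP98A3, 4CL1, CCR1, OMT1, ATCAD4, CAD5 and PAL2, other enzymes of the pathway, had centred log2 ratios of -0.54 to -0.16. Above the typical locus lay 2 of the 15 members: CAD1, listed with the cinnamyl alcohol dehydrogenases, at 0.212 in root and 0.239 in shoot, and PRXCB, a class III peroxidase, at 0.330 and 0.313. In 14 of the 15 the Gini index was lower in root, against 5191 of the 8954 loci compared.

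Of the 6 root marker genes measured, 3 passed the limit downward, against 2.01% of all loci, and 0 upward. The 3 are tied to the endoplasmic reticulum bodies, defence compartments of seedlings and roots. NAI2, which forms these bodies, had 0.108 in root and 0.290 in shoot. PYK10, the beta-glucosidase stored in them, had 0.132 and 0.308, and its binding protein PBP1 had 0.108 and 0.283. The other 3 lay above the typical locus. SCR, a transcription factor of the root endodermis, and AMT1;1, an ammonium transporter, lay near it at 0.02 and 0.13 centred. PRXCB, a class III peroxidase, stood at 0.53 centred, with 0.330 in root and 0.313 in shoot. TSA1, a relative of NAI2, went the other way at 0.375 in root and 0.284 in shoot.

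Nutrient uptake and assimilation genes spread widely around a median of -0.07 centred, with 4 of 28 past the limit downward and 2 upward, against 2.01% and 4.84% of all loci. Paralogues stood apart within the nitrogen pathway. NIA1, a nitrate reductase, had 0.0963 in root and 0.299 in shoot, but the other nitrate reductase, NIA2, had 0.269 and 0.328. GSR2, a cytosolic glutamine synthetase, had 0.174 and 0.349, whereas GS2, the plastid form, had 0.446 and 0.401. AT3G25190 and AT1G76800, listed as vacuolar iron transporter-like genes, had centred log2 ratios of -1.20 and -0.90.

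In the cell wall list 5 of 79 members passed the limit downward and 3 upward, against 2.01% and 4.84% of all loci. EXT3, an extensin that strengthens walls, had 0.111 in root and 0.311 in shoot, and the arabinogalactan protein AGP4 had 0.106 and 0.267. FLA13, a fasciclin-like arabinogalactan protein, was highest at 0.396 and 0.309. Lipid transfer and cuticle genes, which build the waxy surface of shoots, were the highest list outside the chloroplast, with a median of 0.16 centred and 5 of 18 past the limit upward and 0 downward, against 4.84% and 2.01% of all loci. LP1, a lipid transfer protein, had the highest ratio among loci with Gini indices of at most 0.9, 0.690 in root and 0.334 in shoot (2.07-fold). LTPG1 had 0.502 and 0.349, LTP5 0.441 and 0.315, and KCS10, a fatty acid elongase of cutin and wax synthesis, 0.410 and 0.317. LTP2, which lies in the same family, had 0.169 and 0.226 and was more even in root, 0.601 against 0.751.

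Among the antioxidant genes the 46 members had a median of -0.01 centred, with 4 past the limit upward and 3 downward, against 4.84% and 2.01% of all loci. The 4 were GSTU20, a glutathione transferase, and the plastid enzymes DHAR3, FSD2 and GPX1, at 0.77 to 0.91 centred. Downward lay MT1C and MT1A, both metallothioneins whose near-identical sequences can share reads, and TRX5, a cytosolic thioredoxin. The light and clock genes had a median of 0.13 centred, with 17 of 23 above the typical locus, 2 past the limit upward and 3 downward, against 4.84% upward and 2.01% downward of all loci. RVE2, BBX21 and HY5, transcription factors of the clock and of light responses, passed the limit downward at -1.02, -1.01 and -0.70. Upward lay TCP11 at 0.60 and COL4 at 0.63, the latter with 0.449 in root and 0.399 in shoot. AHA3, a plasma membrane proton pump listed as HA3, had 0.397 and 0.307, while HA2, the proton pump with the lowest ratio, had 0.158 and 0.306. The auxin genes had a median of -0.07 centred, with 15 of 39 above the typical locus, 1 past the limit upward and 3 downward, against 4.84% upward and 2.01% downward of all loci. AT3G12955, listed as a SAUR gene, was the highest at 1.46 with a Gini index of 0.934 in shoot, and IAA7, a repressor of the auxin response, stood at 0.57. Downward lay AT2G46690, also listed as a SAUR gene, at -0.90, and the repressors IAA28 and AXR3 at -0.73 and -0.62.

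Salt and dehydration genes, in plants that had received no salt, had a median of -0.01 centred over 54 members, with 5 past the limit upward and 4 downward, against 4.84% and 2.01% of all loci. KIN2, a cold- and abscisic acid-induced gene, had 0.543 in root and 0.408 in shoot, and LTI30, a dehydrin, had a log2 ratio of -1.37. ACT8 was the only one of 31 actin, tubulin and partner genes past the limit, at 0.139 and 0.317. Over all loci 4.84% passed it upward and 2.01% downward, which is few loci in a list of such size. Against the same shares, 0 passed the limit in either direction in core lists of housekeeping function. These were 39 proteasome subunits, 29 histones, 31 cytosolic translation factors and 62 RNA-binding proteins. Their medians were -0.06, -0.05, -0.04 and -0.05 centred.

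Other measures picked out few further loci. PRXQ, a plastid peroxiredoxin, had the highest Gini difference under the naming rule, 0.864 in root and 0.513 in shoot, and CAB3 followed with 0.800 and 0.452. RP1, a regulator of pyruvate phosphate dikinase, was among the 5 largest rises in standard deviation, at 1.28 in root and 0.356 in shoot. Among loci with Gini indices of at most 0.9, the drop in highest reactivity was largest in AT1G33700, with 0.603 in root and 2.83 in shoot. XTH30, a xyloglucan-modifying enzyme, followed with 0.674 and 2.76, and CYCD3;3, a D-type cyclin, with 0.931 and 2.98. TDT, the tonoplast dicarboxylate transporter, had 1.00 and 3.02, and SIM, an inhibitor of the cell cycle, had 0.617 and 2.59. Just inside the minimum of mean reactivity lay U3B, with 0.0738 in root and 0.129 in shoot, and AT1G42580, AT1G77885 and AT1G65481. Just outside lay the abscisic acid hydroxylase CYP707A2, with 0.0300 and 0.127, and AT3G47030, with 0.0140 and 0.147.

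Gene length went with the spread of the ratios more than with their middle. Over 5 classes of equal size by the length of the gene in TAIR10.1, the median log2 ratio was -0.49 in the shortest class (up to 1659 bases) and -0.42 in the longest (from 3751 bases). In the shortest class 7.25% of loci passed the limit upward and 4.67% downward on the centred scale. In the longest class these shares were 3.04% and 0.450%.

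The same loci in salt-treated plants, measured in separate libraries, showed how much of the tissue difference recurred. With salt the median log2 ratio was -0.32 (0.801-fold), and 23 loci (0.257%) were higher and 853 (9.53%) lower in root by at least 1.5-fold. Across the 8954 loci the ratios without and with salt had a Pearson's r of 0.819 and a Spearman's rho of 0.752. Centred, 254 loci (2.84%) passed the limit upward with salt and 150 (1.68%) downward. Of the 433 loci above the limit without salt, 224 (51.7%) passed it with salt too, which is 88.2% of the 254. Of the 180 below, 106 (58.9%) passed it again, which is 70.7% of the 150. All 12 loci named for the lowest ratios passed the limit downward with salt as well, and 8 of the 12 named for the highest passed it upward. The 12 highest hold 10 distinct values, and the duplicated chloroplast loci among them are all counted in the 8. The 12 highest also include AT1G74470, with 0.696 in root and 0.427 in shoot without salt.

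The chloroplast-related lists divided in this comparison. Plastid expression genes had a median log2 ratio of 0.35 without and 0.33 with salt, and all 32 stayed above 0. Their ratio was lower with salt in 20 of the 32, and the centred median went from 0.80 to 0.65. Light-harvesting and photosystem genes had 0.47 without and -0.28 with salt, and the ratio was lower with salt in 26 of the 27. With salt 22 of the 27 lay below 0, as did the median of all loci (-0.32). Centred, the list median went from 0.92 to 0.04, with 15 of the 27 above the typical locus with salt. In each direction 1 passed the limit with salt, against 2.84% of all loci upward and 1.68% downward. The median Gini index of the list remained 0.797 in root and 0.565 in shoot. The raw medians of the antenna proteins went from 0.47 to -0.46, those of photosystem II from 0.51 to -0.27, and those of photosystem I from 0.38 to -0.30. The carriers and the other members went from 0.54 to 0.13. The Calvin cycle and photorespiration list went from 0.21 to 0.04, with the ratio lower with salt in 10 of its 17 members. In it RBCS1A and RBCS3B fell from 0.02 to -0.99 and from 0.50 to -0.65. SHM1 and RPE stayed above 0 with salt, at 0.59 and 0.51. Chlorophyll synthesis had a median of 0.25 without and 0.20 with salt, and chloroplast-encoded transcripts had 0.51 and 0.31. The difference between the treatments could not be tested with 1 value per condition.

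**Figure D5:**
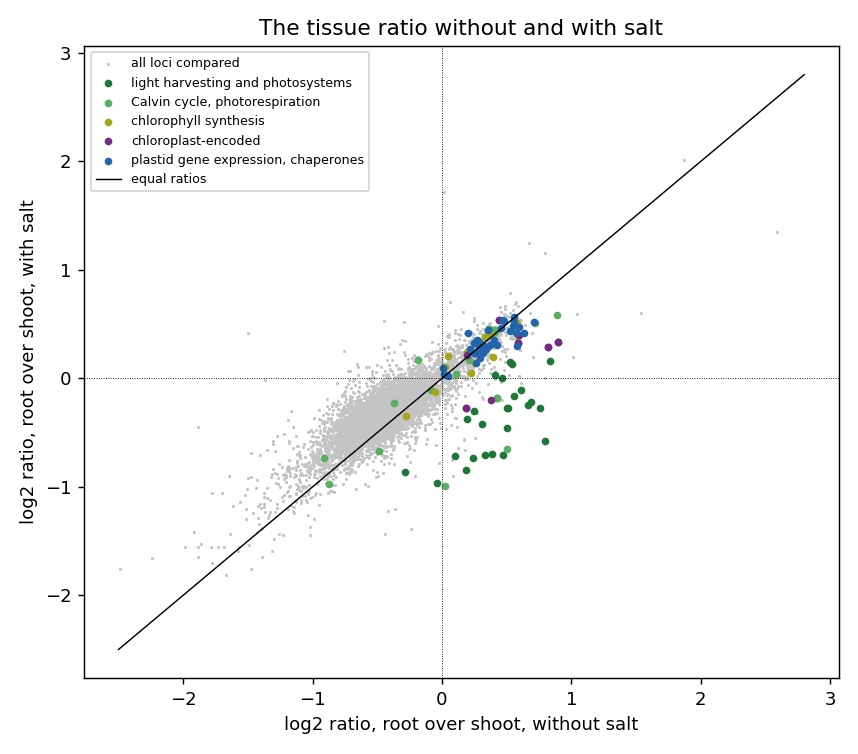
Log2 ratio of mean reactivity, root over shoot, with salt against without salt for all loci (grey) and the 5 chloroplast-related lists. Plastid expression genes (blue) lie near the line of equal ratios, whereas light-harvesting and photosystem genes (dark green) lie below it, with medians of 0.47 without and -0.28 with salt.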

How the data were processed

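DMS reactivity was measured by Structure-seq2 in poly(A)-selected RNA of shoots and roots. The deposited table gives, per the file headers, the highest, mean and standard deviation of reactivity of each transcript as scores, and the Gini index as a fraction, with replicates already combined by the authors. The sources used here do not name the aligner, genome build, scaling or coverage filter. From the table, 12978 transcripts were reduced to 8956 loci, and log2 ratios of mean reactivity were taken without pseudocount where the mean over both tissues reached 0.1. Differences of the other measures are root minus shoot. Python 3.11.15, pandas 2.3.3, numpy 2.4.6, scipy 1.17.1 and matplotlib 3.10.9 were used, and the calculation was tested on simulated data.

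The 27 gene lists were matched by symbol or synonym in the TAIR10.1 RefSeq gene table, which held 8891 of the 8954 loci (99.3%). From the lists 60 loci were removed by hand because they share a name with a gene of another function or compartment. Values of 68 loci were identical to those of another locus. Members and lists were chosen with earlier results of these data known. Named were, among loci with Gini indices of at most 0.9 in both tissues, the 12 highest and 12 lowest log2 ratios, and the 5 highest and 5 lowest differences of each other measure. For each list its 2 highest and 2 lowest ratios, and up to 4 loci on each side of the minimum, were also eligible. Further list members are given as examples chosen after their values were seen. Alternatives were other minimums, fold limits, a pseudocount, all isoforms, a Gini limit, identical values counted once, and centring within 10 classes of mean reactivity.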

Additional observations from a re-analysis of the deposited data

Results flagged for a closer look

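The list of light-harvesting and photosystem genes had a root over shoot median on the log2 scale of 0.466 without salt and -0.278 with salt, the only one of the 27 lists whose raw median changed sign between the treatments. Centred on the median of all loci, the list medians were 0.92 and 0.04. The difference between the treatments was not tested, since each condition has 1 value per transcript. No group of samples could be searched for outlying replicates.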

How the results depend on the processing

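No paired analysis was possible because the authors combined the replicates of each condition, and no replicate could be left out. Requiring values in all 4 conditions changed nothing, since all loci had them. The median log2 ratio was -0.43 with a minimum of 0.2 and -0.32 with a pseudocount of 0.1. With the minimum of 0.2 the median differences were -0.0029 for the Gini index, -0.0996 for the standard deviation and -0.435 for the highest reactivity. Raw counts higher and lower were 213 and 6605 at a limit of 0.32 on the log2 scale, 5 and 214 at 2-fold, and 16 and 377 with the pseudocount. Centred counts were 997 and 680 at a limit of 0.32 on the log2 scale, 60 and 32 at 2-fold, and 200 and 30 with the pseudocount. With the minimum of 0.2, 52 loci were lower, and centring within classes left 46 higher. The share of calls that were higher thus depended on the centring. With the pseudocount the list medians were 0.70 for photosynthesis, 0.60 for plastid expression and 0.62 for the 5 lists together. Centred within classes they were 0.38, 0.27 and 0.31, with 0.17 for chlorophyll synthesis and 0.51 for chloroplast-encoded transcripts. Heat shock proteins changed sign there, from 0.04 to -0.022. In a setting chosen after seeing the data, 348 loci were higher when the 5 chloroplast-related lists were left out; the counts of Gini differences of 0.1 were also added then. Depth is unknown, so no limit from counting could be given.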

Other observations

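Loci with very uneven reactivity, kept out of the naming rule, included the highest ratios of all. AT5G10660 had a mean reactivity of 1.21 in root and 0.202 in shoot (6.02-fold), with Gini indices of 0.824 and 0.970. TPPI, a trehalose-phosphate phosphatase, had 0.760 and 0.208 (3.65-fold), and AT2G41231 had 0.608 and 0.209 (2.91-fold). In these 3 the shoot, not the root, was the more uneven tissue, unlike in the photosynthesis genes. FAF1 had 0.208 and 0.120 and showed the same order of the Gini index, 0.738 in root and 0.920 in shoot. At the other end AT1G22690 had the lowest ratio of all, 0.0526 in root and 0.295 in shoot, with a Gini index of 0.985 in root and 0.631 in shoot.

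Of the 42 loci higher in root by 1.5-fold, 18 belonged to the chloroplast-related lists, which held 1.15% of the loci compared. These 18 include duplicated chloroplast loci with identical values, such as ATCG00950 and ATCG01180. Among the others were NIT1, a nitrilase, with 0.596 in root and 0.371 in shoot, FAD6, a plastid fatty acid desaturase, with 0.531 and 0.352, ROC4, a chloroplast cyclophilin, with 0.514 and 0.341, and LPA2, a photosystem II assembly factor, with 0.492 and 0.326. These were chosen after their values were seen.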
